A study of Homo sapiens with 6 samples.

Results

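The 10 genes described here encode heat shock proteins of the cytosol and of the mitochondrion, with the partners that work beside them. They are HSPA8, HSPA1A and HSPA1B (HSP70 proteins), HSPH1 (HSP110), DNAJB1 (a J protein), BAG3 (a co-chaperone), HSP90AA1 (HSP90), HSPB1 (a small heat shock protein), and HSPD1 and HSPE1 (the mitochondrial chaperonin). They were chosen by symbol from the gene count table, which holds 25349 genes. All 10 symbols were found once, and all 10 were among the 14661 genes that passed the filter on low counts and were tested.

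The cells were SCC-9, an established human line from a squamous cell carcinoma of the tongue. Cells of the siE7 group received an siRNA to exon 7 of the proliferation gene MKI67 (Ki67), and cells of the siNC group a nonspecific siRNA. Both groups were transfected with 10 nM siRNA on days 0 and 2 and harvested for RNA on day 4, with 3 libraries in each group. The study's methods list several siRNAs against exon 7 and do not say which was used for these libraries, so the group stands for 1 cell line and an siRNA of unnamed sequence.

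Heat shock proteins are chaperones. HSP70 proteins bind unfolded stretches of other proteins in a cycle driven by ATP, J proteins deliver clients to them and start ATP hydrolysis, and HSP110 and BAG proteins help to release the nucleotide. HSP90 acts later, on near-native clients such as kinases and steroid receptors, small heat shock proteins hold unfolded proteins without using ATP, and the chaperonin of HSP60 and HSP10 encloses proteins inside mitochondria. On heat or other proteotoxic stress the transcription factor HSF1 binds heat shock elements, alternating GAA and TTC units, in the promoters of many of these genes.

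The elements themselves are shown for 6 of the 10 genes. The 250 bases before each RefSeq start site (build GRCh38.p14) were searched on both strands for a 3-unit element, GAANNTTCNNGAA or its reverse complement TTCNNGAANNTTC, and for the 2-unit forms GAANNTTC and TTCNNGAA, which every 3-unit match also contains. All 10 genes had at least 1 window. Each sequence is written 5′ to 3′ on the strand of its gene, with the matched units and the bases between them in capitals.
HSPA8, far element, chr11:123062348-123062372, minus strand: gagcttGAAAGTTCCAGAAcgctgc
HSPA8, near element, chr11:123062173-123062197, minus strand: ggccccTTCTGGAAGGTTCtaagat
HSP90AA1, chr14:102087114-102087138, minus strand: gggttcTTCCGGAAGGTTCgggagg
HSPD1, chr2:197500062-197500090, minus strand: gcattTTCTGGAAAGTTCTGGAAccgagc
HSPA1A, chr6:31815431-31815450, plus strand: accctgGAATATTCccgacc
HSPA1B, chr6:31827627-31827646, plus strand: cccctgGAATATTCccgacc
DNAJB1, chr19:14518431-14518480, minus strand: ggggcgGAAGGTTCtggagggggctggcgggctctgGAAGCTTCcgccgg
A 3-unit element was found before 3 of the 10 genes (HSPA8, HSP90AA1 and HSPD1). Such elements were found in 0.441% of the 35116 RefSeq promoter windows and before 0.456% of the 10529 tested genes with a window. HSPA8 had 2 of them, ending 218 and 43 bases before its start. HSPD1 had 2 that overlap in 1 run of units, from 245 to 228 bases before 1 of its RefSeq starts. That start lies 539 bases from the RefSeq start of HSPE1. The stretches of HSPA8 and HSPD1 also lie within or across exons of other annotated transcripts of the same genes. A 2-unit match was found before 7 genes, the 3 with a 3-unit element and HSPA1A, HSPA1B, DNAJB1 and HSPB1. It was found in 11.6% of all windows and before 11.9% of the tested genes with a window. HSP90AA1 and HSPD1 had 2 windows each and DNAJB1 had 3, and in these genes not every window held a match. The 2-unit match of HSPA1A and HSPA1B is the same 8 bases, 99 and 98 bases before the start. HSPH1, HSPE1 and BAG3 had neither form in these windows. The run listed for HSPD1 lies before the annotated start of the HSPE1 gene (197500140) but outside the window searched for HSPE1. Elements further than 250 bases from a start were not searched for. A match is a description of the letters, and factor binding was not measured here.

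The targeted gene was low in every siE7 library. MKI67 stood at a normalised read count (CPM, scaled to the TMM-adjusted size of each library) of 1072, 1029 and 1077 with siNC and at 112, 124 and 108 CPM with siE7, a log2 fold change of -3.21 (SE 0.114). Total counts on genes were 25608192 to 29550264 per library. All 7 markers of squamous epithelium were tested, with a summed level of 16619 to 17410 CPM with siNC and 17003 to 22493 CPM with siE7. The summed level of 6 fibroblast markers was 16.5 to 19.6 CPM and 18.2 to 24.2 CPM, 4 endothelial markers summed to at most 0.492 CPM, and of 4 leukocyte markers PTPRC, CD3E and LYZ are not in the table while CD68 reached at most 0.122 CPM.

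Replicate 1 of siE7 stood apart from the other 2 libraries of its group. The chi-square per degree of freedom between its counts and theirs was 61.1 and 72.7, against 6.22 between siE7 replicates 2 and 3 and 5.54 to 6.17 among the siNC libraries. Its deviation moved with the GC content of transcripts. In 4 groups of genes of equal size, ordered from the lowest GC content to the highest, the median difference of log2 CPM between replicate 1 and the mean of replicates 2 and 3 was -0.66, -0.21, 0.21 and 0.39. The cause of this was not tested, and each result below is given with and without that library where the call or the direction changes.

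The 10 heat shock protein genes divided by GC content in that library. The 5 with a GC content under 50% (HSPE1, HSPH1, HSP90AA1, HSPD1 and HSPA8) were lower in siE7 replicate 1 than in replicates 2 and 3. The 5 others (DNAJB1, BAG3, HSPA1B, HSPA1A and HSPB1) were higher there. The largest deviation was that of HSP90AA1, at -1.48 on the log2 scale with a transcript GC content of 41.6%. Once each library's GC trend had been removed HSP90AA1 still deviated by -0.97, and 1.81% of the genes deviated further in either direction before the removal. HSPH1 deviated by -0.87 and, after the removal, by -0.23.

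**Figure D1:**
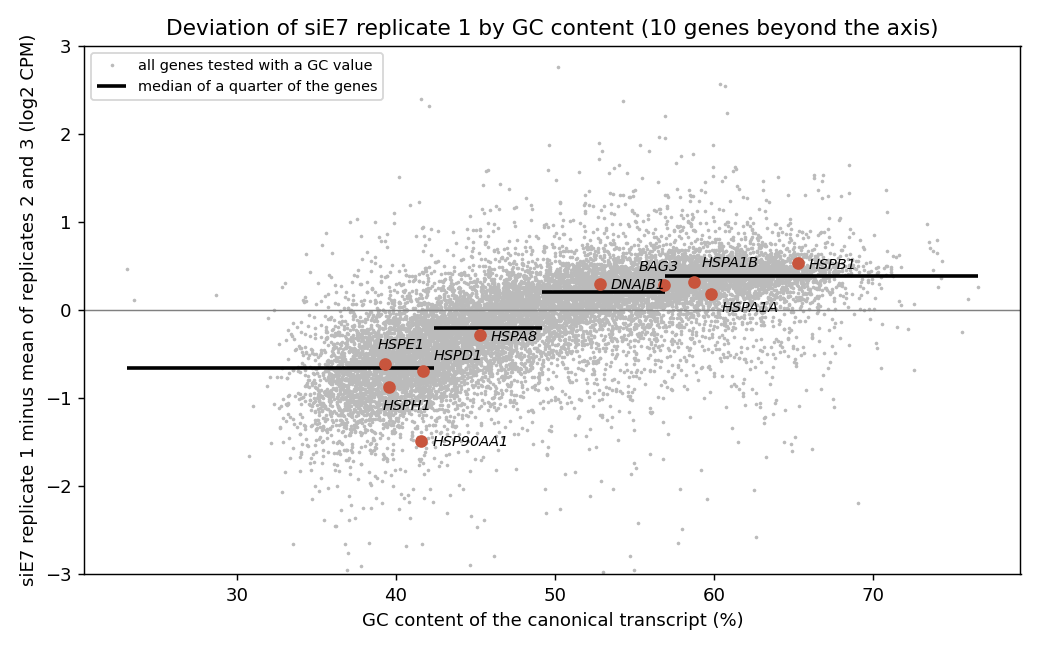
Difference of log2 CPM between siE7 replicate 1 and the mean of siE7 replicates 2 and 3 (vertical axis) against the GC content of the canonical transcript in percent (horizontal axis). Grey points are genes tested, black lines the medians of 4 equal groups of genes by GC content, and red points the 10 heat shock protein genes, of which 5 lie below 0 and 5 above, with HSP90AA1 the lowest at -1.48.

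Of the 10 genes, 3 were lower with siE7 (HSPA8, HSPA1B and BAG3) and 1 was higher (HSPD1) at an adjusted p-value under 0.05 (quasi-likelihood test of edgeR, Benjamini-Hochberg adjustment over all genes tested). That is 40.0% of them, beside 34.0% of all genes tested, with 18.0% of all genes higher and 16.0% lower. An unadjusted p under 0.05 added no gene to these 4. The study's condition for a differentially expressed gene asks as well that the log2 fold change exceed 1 in size. It was met by 0 of the 10 genes in edgeR and in DESeq2, whose fold changes all stayed under that size, and by 12.2% of all genes tested. The libraries of the groups did not overlap for 4 of the 10 genes, beside 47.6% of all genes tested. The median log2 fold change was -0.20 over the 10 genes and 0.08 over all genes tested. Among all genes called, 52.9% were higher with TMM scaling and 71.2% when libraries were scaled to their totals alone, and no called gene among the 10 changed direction. The share of the 10 genes called and the share without overlap were near their background and set these genes apart from the rest in neither respect.

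Without siE7 replicate 1, 7 of the 10 were called, 6 lower and 1 higher, and the share over all genes rose as well, to 58.4%. With the GC trend removed, 6 were called, 5 lower and 1 higher, beside 50.6% of all genes. Of all genes called, 49.5% were higher without siE7 replicate 1 and 48.4% with the GC trend removed. HSPA8, HSPA1B and BAG3 were lower and called under all 14 alternative settings, with HSPA1B counted apart from HSPA1A as deposited. Labels do not say whether replicates came from separate cultures, so the p-values measure the spread between these libraries, which may be technical. In bulk RNA, fewer cells of a kind and less RNA per cell cannot be told apart.

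**Figure D2:**
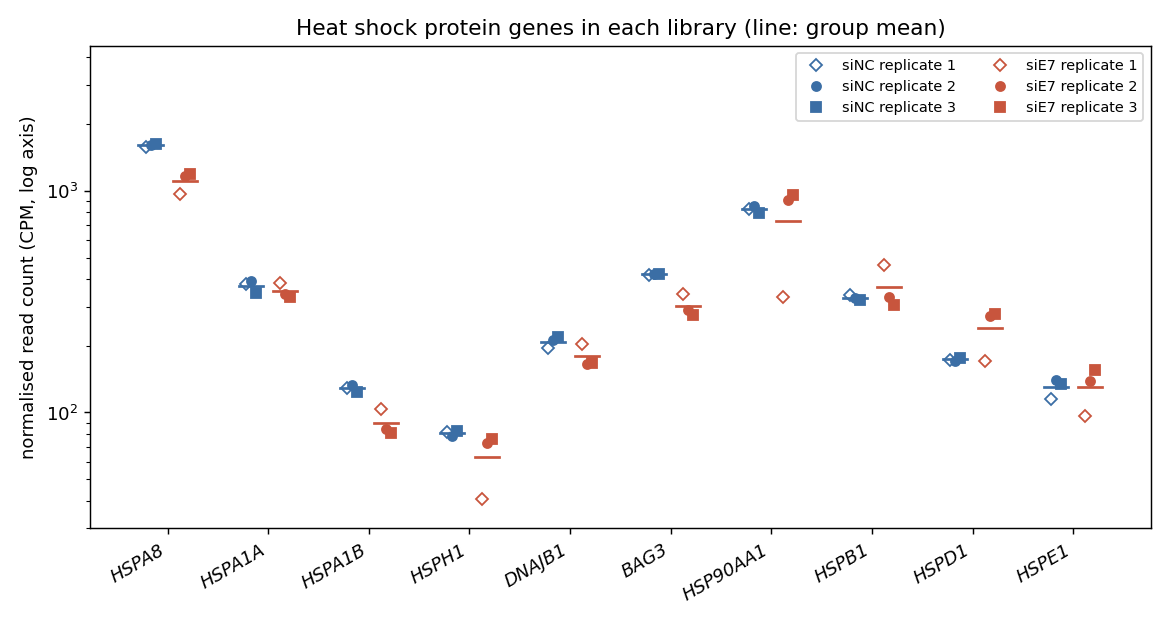
Normalised read count in CPM (log axis) of each of the 10 genes in the 3 siNC and the 3 siE7 libraries, with a line at each group mean and open diamonds for replicate 1. The siE7 libraries of HSPA8, HSPA1B and BAG3 all lie below the siNC libraries, and for HSP90AA1 the open diamond at 333 CPM lies far below the other 5 libraries.

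HSPA8 encodes the constitutive HSP70, HSC70, which folds new proteins and strips clathrin coats from vesicles. It lies on chromosome 11 from 123057489 to 123063230 (GRCh38, minus strand). Its level was 1579, 1608 and 1627 CPM with siNC and 967, 1170 and 1185 CPM with siE7. Every siE7 library was below every siNC library, and the gap was far wider than the spread among the siNC libraries. HSPA8 fell by 0.54 on the log2 scale (SE 0.111, n = 3 per group, adjusted p = 0.0038, edgeR), from 1605 ± 24.1 to 1107 ± 122 CPM (SD). Without siE7 replicate 1, its lowest library, the log2 fold change was -0.51 and adjusted p = 5.7e-10. Its exons share 175 bases with 2 small nucleolar RNA genes on the same strand and 555 bases with a gene on the other strand, and the sources used here do not say whether counting used the strand. The 5 HSPA8 pseudogenes in the table held at most 34 counts together in a library, so few counts were assigned to them.

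HSPA1A and HSPA1B encode the inducible HSP70 and lie side by side in the major histocompatibility complex on chromosome 6, from 31815543 to 31817946 and from 31827738 to 31830254. Their starts are 12195 bases apart on the plus strand. Their coding sequences, 1923 bases each without the stop codon, differ at 4 bases, and 87.9% of all 150-base windows of the coding sequence are identical between them. Over whole transcripts, 69.6% of the HSPA1A windows are also found in HSPA1B and 66.1% of the HSPA1B windows in HSPA1A. A read of 150 bases from such a window has the same letters in both genes, so their counts are uncertain as separate values, and the sum is the firmer measure. The reads came in pairs, and the share of pairs that fit both genes was not computed.

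HSPA1A was at 378, 390 and 347 CPM with siNC and at 382, 341 and 332 CPM with siE7. The groups overlapped, since siE7 replicate 1 was level with siNC. Its log2 fold change was -0.08 (SE 0.109, 95% interval -0.32 to 0.16, adjusted p = 0.60, edgeR), and without siE7 replicate 1 it was -0.21 with adjusted p = 0.0025. HSPA1B was at 129, 133 and 124 CPM with siNC and at 103, 84.6 and 80.8 CPM with siE7. All 3 siE7 libraries were below all siNC libraries. HSPA1B fell by 0.52 on the log2 scale (SE 0.121, adjusted p = 0.0067, edgeR), and by 0.70 without siE7 replicate 1.

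Summed as 1 gene, HSPA1A and HSPA1B stood at 507, 523 and 471 CPM with siNC and at 486, 425 and 413 CPM with siE7. The siE7 replicate 1 lay within the siNC range and the other 2 siE7 libraries below it. The summed log2 fold change was -0.18 (SE 0.109, 95% interval -0.42 to 0.06, adjusted p = 0.22, edgeR), and -0.32 with adjusted p = 1.1e-05 without siE7 replicate 1. Among the 14 alternatives the inducible HSP70 pair was called lower only with that library left out.

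The division of counts between the pair differed between the groups. HSPA1A took 74.5%, 74.6% and 73.7% of the summed counts with siNC and 78.7%, 80.1% and 80.4% with siE7. The siE7 libraries, replicate 1 among them, were all above the siNC libraries, and no 95% Wilson interval of one group reached the other. The lowest siE7 bound was 78.1% and the highest siNC bound 75.4%, for counting error only. The means were 74.3% ± 0.493 and 79.8% ± 0.907 (SD, n = 3 each), a difference of 5.48 percentage points, and the two-sided exact permutation test gave p = 0.1, the smallest that 3 against 3 allows. How the counting assigned reads that fit both genes is not given in the sources used here, so the share is that of assigned counts. HSPA1B also shares 920 of its 2517 exon bases with a long noncoding RNA gene on the same strand, ENSG00000285565, and HSPA1A overlaps no other annotated exon. That gene, looked at after the values were seen, held 160, 159 and 136 counts with siNC and 444, 349 and 390 with siE7, beside HSPA1B means of 3259 and 2622 counts. All its siE7 libraries were above its siNC libraries, and its part in the HSPA1B value and in the share was not tested.

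**Figure D3:**
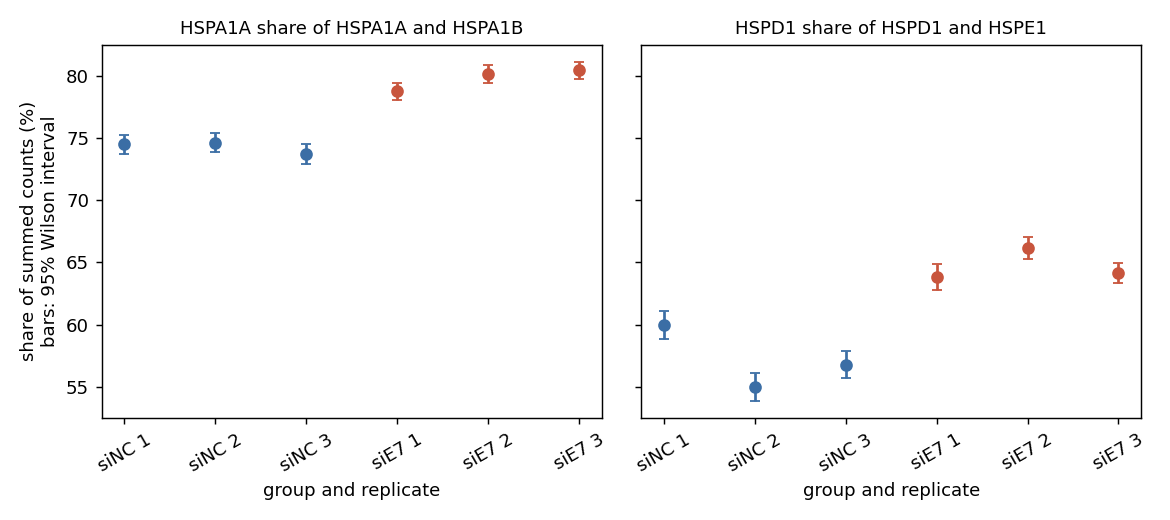
Share of the summed counts taken by HSPA1A of HSPA1A and HSPA1B (left) and by HSPD1 of HSPD1 and HSPE1 (right), in percent, in each library, with 95% Wilson intervals as bars; the axis does not start at 0. In both panels all 3 siE7 libraries (red) lie above all 3 siNC libraries (blue), at 78.7% to 80.4% against 73.7% to 74.6% on the left.

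The neighbour HSPA1L, an HSP70 gene best known from testis that starts 260 bases from HSPA1A in the opposite direction, shares the 2-unit element shown above for HSPA1A. Its level was 1.66, 2.68 and 2.42 CPM with siNC and at 3.34, 3.59 and 2.75 CPM with siE7. The siE7 libraries were above the siNC libraries by a narrow margin, at a log2 fold change of 0.51 (SE 0.249) that did not pass the test (adjusted p = 0.13, edgeR). HSPA6, the strictly heat-inducible HSP70 of human cells, was low in both groups, with means of 1.66 and 2.14 CPM and a log2 fold change of 0.37 (SE 0.253, adjusted p = 0.29, edgeR).

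HSPH1 encodes HSP110, which releases nucleotide from HSP70 and helps it to dissolve aggregates. It lies on chromosome 13 from 31134973 to 31162388. It stood at 82.0, 78.5 and 82.3 CPM with siNC and at 40.7, 73.2 and 75.7 CPM with siE7. The groups did not overlap, yet siE7 replicates 2 and 3 were only slightly below siNC and replicate 1 was far below both. The log2 fold change of -0.36 (SE 0.195, 95% interval -0.78 to 0.07) did not pass the test (adjusted p = 0.18, edgeR). It was -0.18 with adjusted p = 0.012 without siE7 replicate 1, and -0.51 with adjusted p = 5.4e-05 with the GC trend removed.

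DNAJB1 encodes HSP40, the J protein that pairs with HSP70 in the heat shock response. Its gene, on chromosome 19 from 14514769 to 14560391, was at 196, 212 and 218 CPM with siNC and at 204, 165 and 168 CPM with siE7. The siE7 replicate 1 lay inside the siNC range and the other 2 siE7 libraries below it. DNAJB1 had a log2 fold change of -0.22 (SE 0.118, adjusted p = 0.17, edgeR). It passed the test without siE7 replicate 1, at -0.39 with adjusted p = 3.0e-07, and with the GC trend removed, at -0.24 with adjusted p = 0.0085.

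BAG3 links HSP70 to small heat shock proteins and to the autophagy of damaged proteins. The gene lies on chromosome 10 from 119651380 to 119677819, and no other annotated exon overlaps its own. Its level was 418, 421 and 423 CPM with siNC and 343, 289 and 275 CPM with siE7. The siNC libraries were nearly equal, and every siE7 library was below them. BAG3 fell by 0.47 on the log2 scale (SE 0.113, adjusted p = 0.0078, edgeR), from 421 ± 2.64 to 303 ± 35.9 CPM (SD, n = 3 each), and by 0.64 with adjusted p = 1.4e-12 without siE7 replicate 1.

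HSP90AA1 encodes the inducible cytosolic HSP90. It lies on chromosome 14 from 102080742 to 102139699 and shares 197 exon bases with WDR20 on the other strand. Its level was 824, 855 and 794 CPM with siNC and 333, 910 and 953 CPM with siE7. The siE7 replicates 2 and 3 were above every siNC library, and replicate 1 was at 0.358 of their mean. The log2 fold change was -0.17 (SE 0.289, 95% interval -0.81 to 0.46, adjusted p = 0.67, edgeR), with the largest SE among the 10 genes. Without siE7 replicate 1 it turned to 0.11 (SE 0.0562), which did not pass the test (adjusted p = 0.079).

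The constitutive HSP90 gene, HSP90AB1, stood at means of 6637 ± 106 and 5510 ± 256 CPM (SD, n = 3 each). It did not show the low value of HSP90AA1 in siE7 replicate 1, where it stood at 5801 CPM beside 5412 and 5318 CPM. All siE7 libraries of HSP90AB1 were below all siNC libraries, but the log2 fold change of -0.27 (SE 0.0986) did not pass the test (adjusted p = 0.054, edgeR). It was -0.37 with adjusted p = 9.6e-07 without siE7 replicate 1.

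HSPB1 encodes HSP27, a small heat shock protein that is abundant in squamous epithelium and binds unfolded proteins and actin. It lies on chromosome 7 from 76302673 to 76304295. It was at 339, 327 and 322 CPM with siNC and at 463, 333 and 307 CPM with siE7. Replicate 1 of siE7 was above all siNC libraries, replicate 2 among them and replicate 3 below. The log2 fold change was 0.16 (SE 0.147, adjusted p = 0.43, edgeR) and turned to -0.10 (adjusted p = 0.11) without siE7 replicate 1, so no direction was seen.

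HSPD1 (HSP60) and HSPE1 (HSP10) form the mitochondrial chaperonin and are read in opposite directions from a shared promoter region on chromosome 2. Their RefSeq starts lie 105 or 539 bases apart, by the start taken for HSPD1, and their exons share 135 bases on opposite strands. HSPD1 was at 173, 171 and 176 CPM with siNC and at 170, 272 and 278 CPM with siE7. The siE7 replicates 2 and 3 stood well above the siNC libraries, and replicate 1 was level with them. HSPD1 rose by 0.47 on the log2 scale (SE 0.166, adjusted p = 0.048, edgeR), and by 0.60 (adjusted p = 2.5e-12) without siE7 replicate 1. This call is close to the threshold, and it was lost when any other single library was left out (siNC replicate 1, 2 or 3, or siE7 replicate 2 or 3), at a log2 fold change of 0.35 to 0.47 and adjusted p of 0.13 to 0.16.

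HSPE1 was at 115, 140 and 134 CPM with siNC and at 96.5, 139 and 155 CPM with siE7. The groups overlapped, and siE7 held both the lowest and the highest library. HSPE1 had a log2 fold change of 0.00 (SE 0.164, 95% interval -0.35 to 0.36, adjusted p = 0.99, edgeR), so changes within that interval could not be told from none. HSPE1-MOB4, a readthrough transcript that shares 192 exon bases with HSPE1 on the same strand, was at 2.42 to 2.63 CPM with siNC and 2.43, 4.67 and 4.38 CPM with siE7. Its log2 fold change of 0.61 did not pass the test (adjusted p = 0.097, edgeR), and without siE7 replicate 1 it was 0.80 (adjusted p = 0.0015).

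HSPD1 took a larger share of the counts of the chaperonin pair with siE7. The share was 60.0%, 55.0% and 56.8% with siNC and 63.8%, 66.2% and 64.1% with siE7. All siE7 libraries, replicate 1 among them, were above all siNC libraries. The means were 57.2% ± 2.52 and 64.7% ± 1.27 (SD, n = 3 each), a difference of 7.46 percentage points (two-sided exact permutation test, p = 0.1, the smallest possible). The low value of siE7 replicate 1 seen in each gene of this pair alone was thus not seen in their ratio.

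**Figure D4:**
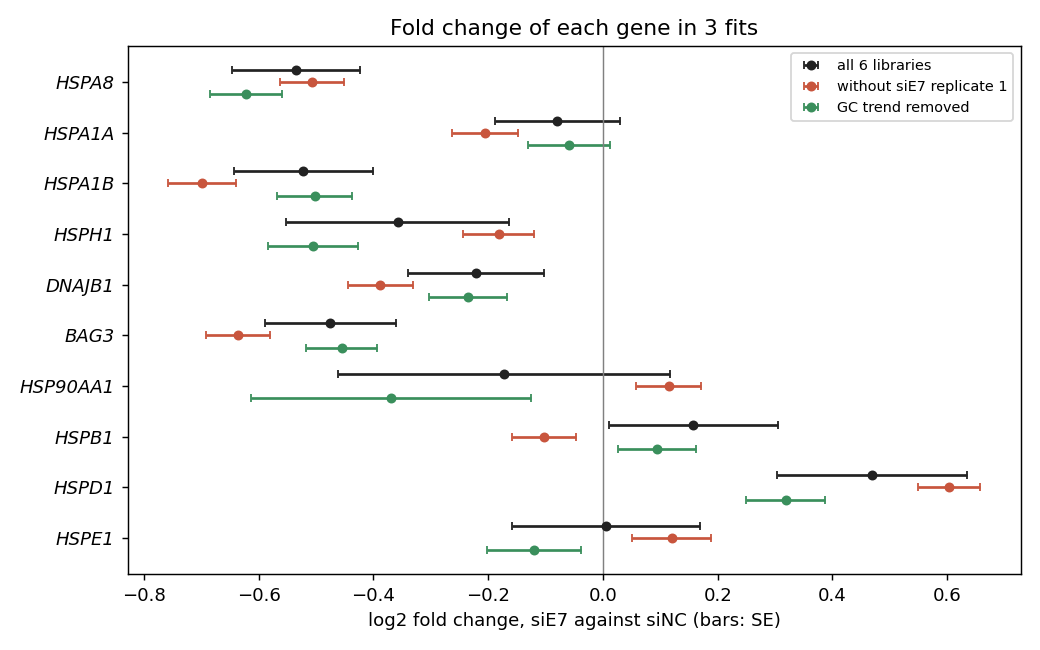
Log2 fold change of siE7 against siNC for each of the 10 genes, as points with SE bars, in the fit of all 6 libraries (black), without siE7 replicate 1 (red) and after the GC trend was removed from every library (green). HSPA8, HSPA1B and BAG3 lie below 0 and HSPD1 above 0 in all 3 fits, while the red points of HSP90AA1 (0.11) and HSPB1 (-0.10) lie on the other side of 0 from the black ones.

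Levels between the genes were compared per kilobase of the canonical transcript. With siNC, HSPA8 had the highest level at 709 ± 10.6 CPM per kilobase (SD, n = 3), followed by HSPB1 (424 ± 11.3), HSP90AA1 (255 ± 9.50), HSPE1 (233 ± 23.2), BAG3 (164 ± 1.03), HSPA1A (155 ± 9.30), DNAJB1 (93.0 ± 5.04), HSPD1 (77.2 ± 1.24), HSPA1B (51.1 ± 1.81) and HSPH1 (15.4 ± 0.398). In this order the libraries of HSP90AA1 and HSPE1 overlapped, and those of all other neighbours did not. HSPA1A and HSPA1B were ranked apart as deposited. Their places, and the order of HSPA1A and BAG3, thus depend on how reads were assigned between them. With siE7, HSPA8 at 489 ± 53.8 CPM per kilobase and HSPB1 at 473 ± 107 overlapped. This came from siE7 replicate 1, with HSPB1 at 596 and HSPA8 at 427. In replicates 2 and 3 HSPA8 was above HSPB1. HSPA1B at 35.6 ± 4.79 and HSPH1 at 12.0 ± 3.73 stayed the lowest of the 10. By their means, the order of HSP90AA1 and HSPE1, of HSPA1A and BAG3, and of DNAJB1 and HSPD1 was exchanged between the groups. For HSP90AA1 and HSPE1 this came from siE7 replicate 1, at 103 and 173 CPM per kilobase. In replicates 2 and 3 HSP90AA1 stayed above HSPE1, and HSPD1 stood above BAG3. DNAJB1 stayed above HSPD1 in replicate 1, at 91.1 and 75.8 CPM per kilobase. The libraries of HSPE1 and HSP90AA1, of HSP90AA1 and HSPA1A, of BAG3 and HSPD1, and of HSPD1 and DNAJB1 overlapped with siE7. Without siE7 replicate 1 none of these pairs overlapped.

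The other chaperone genes were counted on 9 lists by family, with the lists chosen when earlier results of these data were known. Of their 114 tested genes 32 were called, 28.1% beside the background of 34.0%, with 18 higher and 14 lower, and a median log2 fold change of 0.05. Without siE7 replicate 1, 78 were called (68.4%, beside 58.4% of all genes), 40 higher and 38 lower. With any other library left out, 18 to 22 were called, beside 20.9% to 26.8% of all genes. Scaling to library totals gave 42, 33 higher and 9 lower, beside 38.6% of all genes. No gene of the lists called in the fit of all libraries changed direction under any of the 14 alternatives. The directions given below are those of called genes, by the same edgeR test.

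Among the other HSP70 and HSP110 genes, 8 were tested, 1 rose and 2 fell. HSPA13, a microsomal HSP70, rose by 1.21 on the log2 scale, and HSPA14, a ribosome-associated HSP70, and HSPA4L, an HSP110 relative, fell by 1.53 and 1.28. All 3 had means under 10 CPM. HSPA13 did not rise in siE7 replicate 1, at 4.12 CPM beside 3.44 to 5.00 CPM with siNC. Among 18 HSP90 partner genes, 4 rose and 2 fell. FKBP5, a co-chaperone of steroid receptors and a classic glucocorticoid-induced gene, rose from 176 to 385 CPM (log2 fold change 1.13), and CDC37L1, a relative of the kinase co-chaperone CDC37, and PPID, a cyclophilin of receptor complexes, rose by 0.86 and 0.46. TOMM34 and STIP1, both of which bind HSP70 and HSP90, fell by 0.48 and 0.35. STIP1, which hands clients from HSP70 to HSP90, went from 862 to 675 CPM.

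The small heat shock proteins beside HSPB1 were hardly expressed, and 2 of 8 could be tested. CRYAB, the lens and muscle protein alpha-B-crystallin, rose from a mean of 0.417 to 1.61 CPM (log2 fold change 1.93). Among 26 other J proteins and BAG proteins, 4 rose and 2 fell. DNAJB4, a close relative of DNAJB1, rose by 1.51, DNAJB2 by 0.62 and DNAJC7 by 0.56, while DNAJC13, an endosomal protein, and DNAJC5, the synaptic vesicle protein CSP, fell by 0.85 and 0.48. DNAJC7 did not rise in siE7 replicate 1, at 194 CPM beside 185 to 196 CPM with siNC. The cytosolic chaperonin TRiC and prefoldin had 14 genes tested, of which PFDN4 rose by 1.14 and the TRiC subunit CCT7 fell by 0.76, from 1240 to 734 CPM. PFDN4 did not rise in siE7 replicate 1, at 10.3 CPM beside 10.3 to 12.7 CPM with siNC.

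The mitochondrial genes beside HSPD1 and HSPE1 moved both ways, with 4 of 17 higher and 3 lower. HSPA9, the mitochondrial HSP70, rose from 475 to 651 CPM (log2 fold change 0.46, SE 0.113, adjusted p = 0.0094, edgeR), and all its siE7 libraries were above all siNC libraries. GRPEL2, a nucleotide exchange factor of HSPA9, rose by 0.98, the protease LONP1 by 0.88 and the iron-sulphur J protein HSCB by 0.59. TRAP1, the mitochondrial HSP90, fell by 0.53, the protease subunit CLPP by 0.46 and the peptidase PITRM1 by 0.34.

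In the endoplasmic reticulum, 1 of 16 genes rose (DNAJC1, by 1.03) and 3 fell, the disulphide isomerases PDIA4 (by 0.87) and PDIA6 (by 0.35) and the lectin chaperone calreticulin (CALR, by 0.60). The reticulum's HSP70, HSPA5, had a log2 fold change of 0.07 (adjusted p = 0.62, edgeR). Its HSP90, HSP90B1, had -0.30 (adjusted p = 0.29) and was at 264 CPM in siE7 replicate 1 beside 507 and 539 CPM, a low value in the same library as for HSP90AA1. With the GC trend removed HSP90B1 still deviated there by -0.48, and its log2 fold change became -0.47 and passed the test (adjusted p = 0.0047, edgeR).

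Of the 4 genes listed as heat shock factors (HSF1, HSF2, HSF4 and the regulator HSBP1), HSF2 was called. HSF1 had a log2 fold change of -0.23 (SE 0.151, adjusted p = 0.27, edgeR), with 159, 114 and 105 CPM with siE7 against 143 to 157 CPM with siNC, and of -0.49 (adjusted p = 7.0e-09) without siE7 replicate 1. HSF2, another factor that binds the same elements, rose from 3.17 ± 0.516 to 7.38 ± 2.08 CPM (SD, n = 3 each), a log2 fold change of 1.22 (adjusted p = 0.0032, edgeR). HSF4, the factor best known from the lens, had 1.41 (adjusted p = 0.064), and 1.64 (adjusted p = 0.010) without siE7 replicate 1, at means of 0.278 and 0.743 CPM. HSBP1, which binds HSF1, had 0.03 (adjusted p = 0.86). Among 9 other heat-inducible genes, ZFAND2A rose by 0.68 and IER5 fell by 0.53.

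**Figure D5:**
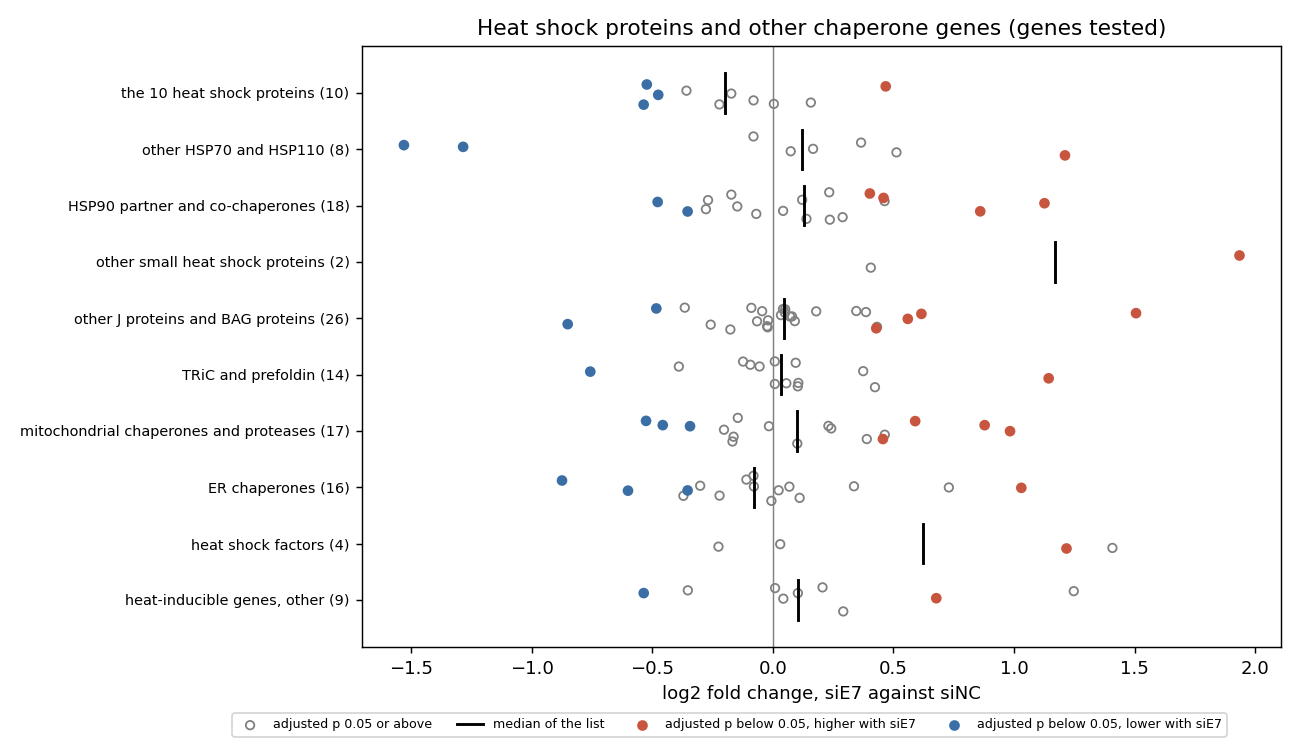
Log2 fold change of siE7 against siNC (horizontal axis) of the 10 heat shock protein genes (top) and of the tested genes of the 9 other chaperone lists, with the number of genes in brackets. Filled points passed an adjusted p-value of 0.05, red higher and blue lower, and black lines are list medians, which run from -0.20 for the 10 genes to 1.17 for the 2 small heat shock proteins.

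The genes outside the lists whose pattern over the 6 libraries was most like that of HSPA1A and HSPA1B summed were PDK3, SLC12A9, ASS1, RFX2 and PWWP2B. The measure was the root mean square difference of centred log2 CPM, at 0.03 to 0.04. Their log2 fold changes were -0.16, -0.19, -0.21, -0.20 and -0.23, and the likeness is given as a description only.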

How the data were processed

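The authors deposited whole-number counts of reads per gene, without normalization, for 3 siNC and 3 siE7 libraries of SCC-9 cells (stranded mRNA kit, NovaSeq, paired-end reads of 150 bases). The submitters' processing notes name HISAT2, DESeq2 and GRCh38. The counting tool, its annotation and its strand setting are not given in the sources used here. Samples were grouped by their titles.

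Genes were filtered with filterByExpr, scaled by TMM (trimmed mean of M-values) and tested with edgeR 4.0.16 (R 4.3.3), by the robust quasi-likelihood F-test over all 14661 genes kept, with Benjamini-Hochberg adjustment. CPM are counts relative to the TMM-scaled library size. Per-library log2 values had 0.02 CPM added. Fits were tested on simulated data. Gene positions, GC content and transcript lengths come from GENCODE v44 (25283 of 25349 identifiers matched without version) and promoters from RefSeq. GC trends were removed by lowess with a span of 0.3.

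The 10 genes and all lists were chosen with earlier results of these data known. All 10 were named by rule, with MKI67, 9 relatives, up to 3 called genes per list and direction, and the 5 genes most alike to HSPA1A with HSPA1B. Called genes outside this rule are counted and not named. Alternatives were DESeq2 1.42.0, scaling by RLE, by upper quartiles or by library totals alone, omission of the filter, at least 10 counts in every library, a replicate block, and each library left out. Removal of the GC trend was chosen after seeing the data. Same-numbered libraries of the groups did not deviate together (correlations of -0.04, -0.02 and -0.05), so the numbers were not taken to pair them.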

Additional observations from a re-analysis of the deposited data

How the results depend on the processing

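HSPA8, HSPA1B and BAG3 kept their direction and their call in all 14 alternatives. For HSPA1B, all 14 used the same deposited assignment of reads between it and HSPA1A, and the pair summed was called in only 1. HSPD1 stayed higher but missed the threshold with DESeq2 (log2 fold change 0.41) and RLE scaling (0.41), which left 0 of the 10 genes higher (1 at an unadjusted p under 0.05 in each), and without 1 library it ran from 0.35 to 0.60, with 0 to 1 gene higher. Scaling to library totals moved the median of all genes by 0.17, to 0.25, and the share of called genes that were higher from 52.9% to 71.2%. It turned HSPA1A to 0.085 and HSP90AA1 to 0.018. HSPE1 turned to -0.058 (DESeq2), -0.048 (RLE), -0.010 (no filter), -0.019 (replicate block) and -0.12 (GC trend removed). HSPH1 passed the threshold with no filter (-0.37), with the replicate block (-0.41, adjusted p = 0.046, edgeR) and with the GC trend removed (-0.51), which also brought in DNAJB1 (-0.24) and made 5 genes lower. The cause was not tested.

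With 1 library left out, the number of all genes called ran from 3153 (without siNC replicate 3) to 8765 (without siE7 replicate 1), 20.9% to 58.4% of those tested, that of the 10 genes from 3 to 7 and of those lower from 3 to 6. The log2 fold change ran from -0.21 to -0.039 for HSPA1A, -0.51 to -0.18 for HSPH1, -0.41 to 0.11 for HSP90AA1, -0.10 to 0.27 for HSPB1, -0.39 to -0.17 for DNAJB1, -0.14 to 0.12 for HSPE1 and -0.32 to -0.13 for HSPA1A with HSPA1B. Of the lists, the calls ran from 2 to 14 for HSP90 partners, 3 to 15 for J and BAG proteins, 1 to 9 for TRiC and prefoldin, 3 to 15 for mitochondrial genes, 3 to 10 for the endoplasmic reticulum, 1 to 3 for heat shock factors and 1 to 7 for other heat-inducible genes.

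With the GC trend removed, which called 50.6% of all genes, 13 of 18 HSP90 partners, 11 of 26 J and BAG proteins, 5 of 14 TRiC and prefoldin genes, 8 of 16 genes of the endoplasmic reticulum, 3 of 4 heat shock factors and 4 of 9 other heat-inducible genes were called. Library totals (38.6% of all genes) gave 4 TRiC and prefoldin genes, 2 heat shock factors and 4 other heat-inducible genes, no filter (21.6%) gave 4 TRiC and prefoldin genes, and at least 10 counts in every library left 0 small heat shock proteins called, since CRYAB was then not tested. The fit with a block on the replicate number called 4947 genes and 2 heat shock factors. The numbers were not taken to pair the libraries, and the labels do not say whether they do. No call among the 10 genes other than that of HSPH1 changed under the block.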
